A study of Homo sapiens with 6 samples.

Results

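The miR-106b/93/25 cluster holds 3 microRNA precursors, and both mature arms of each were followed in K562 cells that over-expressed RUNX1. The 6 arms, hsa-miR-106b-5p, hsa-miR-106b-3p, hsa-miR-93-5p, hsa-miR-93-3p, hsa-miR-25-3p and hsa-miR-25-5p, were picked by name from 28846 listed small RNAs, of which 2596 are microRNAs. K562 is an established human leukemia cell line with some features of immature red blood cells. The control cells carried the lentiviral vector SIEW, which expresses GFP, and the RUNX1 cells carried SIEW RUNX1, which expresses human RUNX1 together with GFP. Both conditions thus shared the vector backbone, GFP and 10 days of culture, and each was sampled in 3 independent transductions. Sorting of these cells for GFP is not described in the sources used here, and small RNA counts do not measure the RUNX1 mRNA. The paper reports RUNX1 over-expression in K562 cells by Western blot, without saying whether the blot used the sequenced transductions. The transduced cells were measured in bulk, so a change in a few cells and a smaller change in all of them cannot be told apart. The comparison asks which microRNAs respond to RUNX1.

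A microRNA is cut as a hairpin from a longer transcript, and the hairpin gives a 5p and a 3p arm. Usually one arm is loaded more often into an Argonaute protein and guides it to mRNAs that pair with the seed, bases 2 to 8 of the mature arm. The other arm is often degraded. The miR-106b/93/25 cluster is a paralog of the miR-17/92 cluster, known as an oncogenic cluster in blood cells, and of the miR-106a-363 cluster. It lies in MCM7, which encodes a subunit of the helicase that opens DNA for replication. Cell cycle inhibitors such as CDKN1A and the pro-apoptotic BCL2L11 are known targets of the family.

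In the GENCODE 29 annotation of GRCh38, the precursors lie on the minus strand of chromosome 7, all in intron 13 of the 15-exon transcript MCM7-201. This intron runs over chr7:100093402-100094172 and is 771 bases long. MIR106B, at chr7:100093993-100094074, comes first in the direction of transcription. It is followed after 145 bases by MIR93, at chr7:100093768-100093847, and after a further 124 bases by MIR25, at chr7:100093560-100093643. The 3 precursors together span 515 bases. The submitters' processing notes name hg19, so these positions describe the locus and were not used to count reads.

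The mature sequences, from RefSeq on GRCh38.p14, show which arms can share targets, with the seed in capitals.
hsa-miR-106b-5p: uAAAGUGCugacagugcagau
hsa-miR-93-5p: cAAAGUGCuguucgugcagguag
hsa-miR-25-3p: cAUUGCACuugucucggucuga
hsa-miR-106b-3p: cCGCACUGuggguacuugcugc
hsa-miR-93-3p: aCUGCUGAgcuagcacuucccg
hsa-miR-25-5p: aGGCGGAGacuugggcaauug
miR-106b-5p and miR-93-5p have the same seed, which is the seed of miR-17-5p and 5 other microRNAs. The seed of miR-25-3p is a different one, shared with miR-92a-3p and 4 other microRNAs. No other human microRNA in the RefSeq table has the seed of miR-106b-3p, miR-93-3p or miR-25-5p. Over the first 21 bases, miR-106b-5p differs from miR-93-5p at 5 positions and from miR-17-5p, miR-20a-5p and miR-106a-5p at 3 positions each. How reads that match several such sequences were counted is not given in the sources used here, so counts of miR-106b-5p and its relatives could have been split or exchanged.

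The hairpins show from which side each arm is cut, with the arms in capitals, the 5p arm first. These are the 2 hairpins of the cluster that the RefSeq table holds, and MIR93 is named only.
MIR106B: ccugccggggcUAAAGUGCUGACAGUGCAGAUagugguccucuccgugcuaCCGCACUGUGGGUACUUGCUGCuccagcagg
MIR25: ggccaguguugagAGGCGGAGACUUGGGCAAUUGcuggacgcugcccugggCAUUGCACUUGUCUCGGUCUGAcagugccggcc

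Library sizes ranged from 1618248 to 15245007 counts. MicroRNAs took 81.4% to 82.1% of the counts in the controls and 89.5% to 91.9% in RUNX1 libraries. A single microRNA, miR-10a-5p, took 5.81% to 7.02% of the counts in the controls and 24.5% to 29.3% in RUNX1 libraries. RUNX1 replicate 3 stood apart from the other RUNX1 libraries. Its profile of small RNAs was nearer to the controls (mean Pearson correlation of log2 CPM with the controls 0.928, against 0.904 and 0.907 for replicates 1 and 2), and among the 335 microRNAs altered upon RUNX1 over-expression the median size of the log2 change was 1.04 in replicate 3, 1.30 in replicate 1 and 1.33 in replicate 2. The erythroid markers miR-451a and miR-486-5p were present in every library, with 1672 or more counts each. Of the 4 tested erythroid arms miR-144-3p rose by 1.02 on the log2 scale, while miR-144-5p, miR-451a and miR-486-5p fell by 0.58, 0.84 and 0.80. The authors' q-RT-PCR of mature miR-144-3p went the other way, lower in RUNX1 cells. The neuronal miR-124-3p and the muscle miR-206 had no count in any library, which allows up to 3 counts, and the liver marker miR-122-5p had 1 to 13 counts. The epithelial miR-141-3p had 24.9 ± 3.58 CPM in the controls and 56.2 ± 2.20 CPM in RUNX1 libraries (SD, n = 3 each), and its part in the results was not tested. The library names of control and RUNX1 samples carry different letters, A and B, whose meaning is not given. If they mark preparations, these cannot be told apart from the condition. The library names of RUNX1 replicates 1 and 2 also carry the same number, so it is not certain from the names that they are separate transductions, although their titles number them apart. Their counts differed by more than sampling noise (chi-square per degree of freedom 56.3), less than either differed from replicate 3 (451 and 314).

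In control K562 cells the cluster was an abundant one, dominated by miR-25-3p. The 6 arms took 3.20% ± 0.00515 of all microRNA counts in control samples (SD, n = 3). Within the cluster, miR-25-3p made up 69.7% ± 0.439 of the counts and miR-93-5p 21.8% ± 0.290, followed by miR-106b-5p with 3.56% ± 0.185. The remaining arms held 2.63% ± 0.176 for miR-106b-3p, 1.93% ± 0.130 for miR-25-5p and 0.406% ± 0.0448 for miR-93-3p (SD, n = 3 each). By count, miR-25-3p ranked 11 among the 2596 microRNAs in every control sample, and miR-93-5p ranked 28. The arms are 21 to 23 bases long, and how well each sequence is captured in a library was not measured.

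All 6 arms passed the filter on low counts and entered the test of RUNX1 against control over all 947 small RNAs that passed. Counts were scaled by TMM, which assumes that most small RNAs do not change, and levels below are in CPM, each count taken relative to the size of its scaled library. Below, log2FC is the log2 fold change of RUNX1 over control. To be called altered, a small RNA needed a P-value below 0.05 together with a log2FC of 0.5 or more in either direction. Upon RUNX1 over-expression 1 of the 6 arms was altered, miR-25-5p, which fell. Of all 598 tested microRNAs 56% were altered by the same rule, 33.4% (200) up and 22.6% (135) down. By an adjusted p below 0.05 with the same fold threshold miR-25-5p was again the arm that passed, and 52.7% of the microRNAs did. Without the fold threshold 3 of the 6 arms had a P-value below 0.05, miR-25-5p, miR-106b-3p and miR-106b-5p, against 60% of the microRNAs. In the scaling to library size alone the altered microRNAs were 91 up and 292 down, and with TMM factors from microRNAs alone 161 up and 175 down. So many altered small RNAs, 57.6% of those tested, go against the assumption behind TMM, although these calls were themselves made with TMM. The altered small RNAs were 265 up and 280 down (29.6% of those tested), and the size of each log2FC rests on the scaling.

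miR-25-3p, the most abundant arm, had 14052, 13814 and 14985 CPM in the controls and 12638, 13089.7 and 13599 CPM in RUNX1 replicates 1, 2 and 3. All RUNX1 samples lay below all control samples, by a small distance. The log2FC was -0.12 (standard error 0.108, 95% interval -0.37 to 0.12), with adjusted p = 0.350 in the quasi-likelihood test of edgeR (Benjamini-Hochberg).

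miR-93-5p, the second arm by level, had 4482, 4343 and 4599 CPM in the controls and 4245, 4283 and 4829 CPM in RUNX1 libraries. The samples of both conditions overlapped, with RUNX1 replicate 3 the highest of the 6. Its log2FC was -0.01 (standard error 0.114, 95% interval -0.26 to 0.25; adjusted p = 0.964, same edgeR test).

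miR-106b-5p, which has the seed of miR-93-5p, had 762, 677 and 748 CPM in the controls and 888, 1036 and 834 CPM in RUNX1 libraries. Here every RUNX1 sample lay above every control sample. The log2FC of 0.33 (standard error 0.132, 95% interval 0.04 to 0.63) stayed under the fold threshold, and its adjusted p = 0.0533 in the same edgeR test. In the scaling to library size alone the value was -0.37, the opposite direction.

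Of the less abundant arms, miR-106b-3p had 495, 555 and 565 CPM in the controls and 355, 347 and 496 CPM in RUNX1 libraries. RUNX1 replicates 1 and 2 were below the controls, and replicate 3 overlapped with control replicate 1. Its log2FC was -0.43 (standard error 0.164, 95% interval -0.80 to -0.06; adjusted p = 0.0478, same edgeR test), short of the fold threshold. The call was not stable. Without RUNX1 replicate 3 the value was -0.53 and with TMM factors from microRNAs alone -0.62, and the arm was altered in both cases. Without RUNX1 replicate 2 it was -0.30, with adjusted p = 0.181 in the same edgeR test.

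miR-93-3p, the rarest arm in control samples, had 77.0, 91.0 and 81.3 CPM in the controls and 82.5, 68.6 and 70.0 CPM in RUNX1 libraries. The conditions overlapped, and the log2FC was -0.18 (standard error 0.139, 95% interval -0.49 to 0.14; adjusted p = 0.307, same edgeR test).

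miR-25-5p, the lesser arm of the MIR25 hairpin shown above, had 399, 404 and 381 CPM in the controls and 66.5, 76.6 and 256 CPM in RUNX1 libraries. All 3 RUNX1 samples lay below the controls, replicates 1 and 2 far below and replicate 3 between them and the controls. The underlying counts were 834, 3258 and 2891 in the controls and 767, 479 and 1757 in RUNX1 libraries, so depth does not limit this value. The mean went from 394 ± 12.4 CPM in control to 133 ± 107 CPM in RUNX1 libraries (SD, n = 3 each). This is a log2FC of -1.57 (standard error 0.451, 95% interval -2.59 to -0.55; adjusted p = 0.0143, same edgeR test), or 2.97-fold lower in RUNX1 libraries. The size rests on RUNX1 replicate 3, without which the log2FC was -2.38. It was -1.24 without RUNX1 replicate 1 and -1.28 without RUNX1 replicate 2. Set against the mean of the controls, the log2 change was -2.56, -2.36 and -0.62 in RUNX1 replicates 1, 2 and 3. RUNX1 replicate 3 was also the RUNX1 library nearest to the controls for 80 of the 135 microRNAs altered down and for 146 of the 200 altered up.

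**Figure D1:**
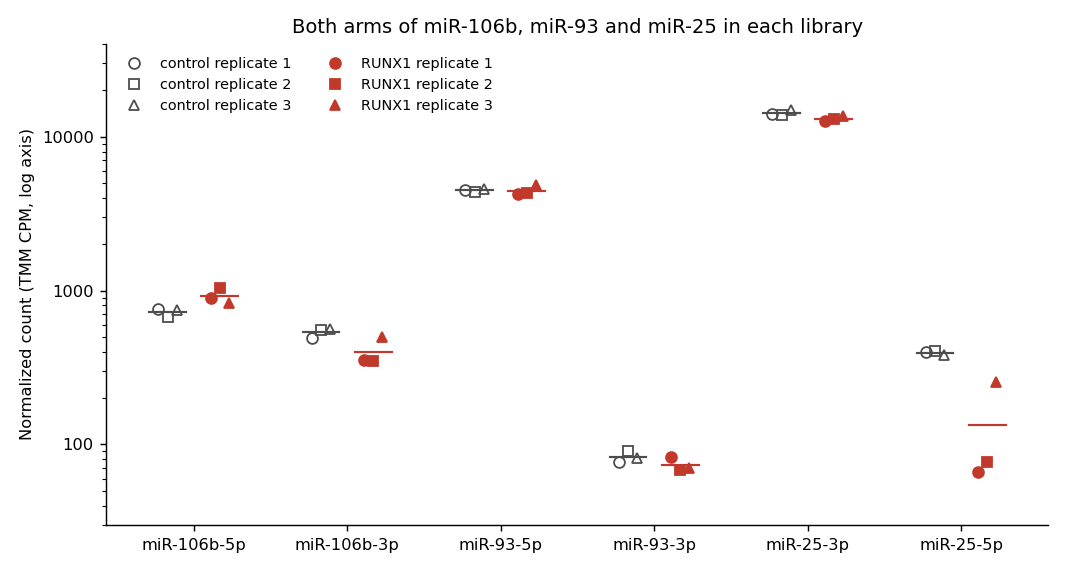
TMM-normalized level (CPM, log axis) of the 6 arms, with control samples as open grey symbols, RUNX1 samples as filled red symbols, the marker shape giving the replicate and the bar the mean of 3 samples. miR-25-5p separates most, with 381 to 404 CPM in the controls and 66.5 to 256 CPM in RUNX1 libraries, while the samples of miR-93-5p and of miR-93-3p overlap.

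In 3 of the 6 arms, miR-106b-5p, miR-25-3p and miR-25-5p, all RUNX1 samples lay on one side of all the controls. This was the case for 61.7% of all tested microRNAs. In control samples the order of the levels was the same in each library, from miR-25-3p over miR-93-5p, miR-106b-5p, miR-106b-3p and miR-25-5p to miR-93-3p. In RUNX1 samples the first 4 places were kept. miR-25-5p and miR-93-3p came to overlap, with 66.5 against 82.5 CPM in replicate 1, 76.6 against 68.6 CPM in replicate 2 and 256 against 70.0 CPM in replicate 3.

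As a share of the library the cluster gave another picture. The 6 arms took 3.19%, 3.20% and 3.19% of the microRNA counts in the controls and 1.51%, 1.52% and 1.94% in RUNX1 libraries, a mean of 1.66% ± 0.248 in the latter (SD, n = 3). The conditions did not overlap. A larger share of miR-10a-5p lowers all other shares. Without it in the denominator the shares were 3.46% ± 0.0278 in the controls and 2.37% ± 0.269 in RUNX1 libraries (SD, n = 3 each). By rank, miR-25-3p went from 11 in all controls to between 14 and 19 in RUNX1 libraries. miR-93-5p went from 28 to between 29 and 32.

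The scaling thus decides whether the main arms are read as lower. With library size alone, 5 of the 6 arms were altered, all downwards, among them miR-25-3p with a log2FC of -0.82 (standard error 0.117) and miR-93-5p with -0.70 (standard error 0.137). By the same scaling 292 of the 598 tested microRNAs were altered down and 91 up. The median log2FC of all tested microRNAs moved by the same step, from 0.11 with TMM to -0.59 with library size alone. Relative to this median the arms hardly moved. This follows from the calculation, since a change of scaling shifts all log2FC values by nearly the same amount. miR-25-3p stood at -0.23 relative to the median with TMM and with library size alone, and miR-93-5p at -0.11 in both. miR-106b-5p stood at 0.23 with TMM and 0.22 with library size alone. miR-25-5p stood at -1.68 with TMM and -1.62 with library size alone. Among the log2FC values of all tested microRNAs with TMM, miR-25-5p lay at percentile 7.53, miR-93-5p at 45.5 and miR-106b-5p at 58.2.

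**Figure D2:**
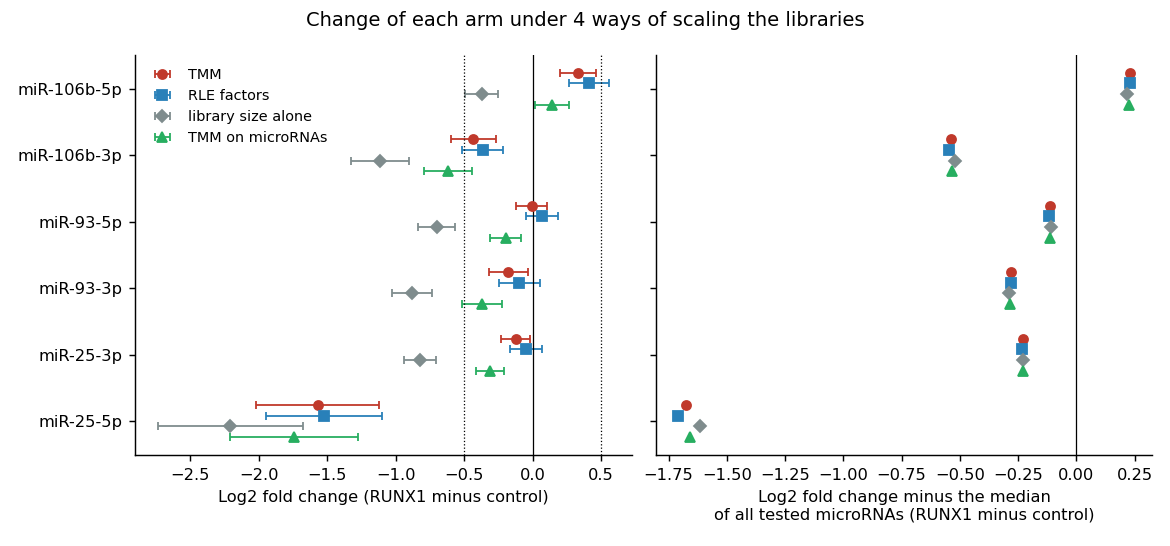
Left, log2FC of each arm with its standard error under 4 scalings of the libraries, with dotted lines at the fold threshold of 0.5. Right, the same values minus the median of all tested microRNAs, where the scalings fall nearly together by construction and only miR-106b-5p lies above 0.

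A ratio of 2 arms within a library needs no scaling. The 3 precursors lie in one intron, and ratios between their arms show where the arms changed unequally. Counts in a library were compared as log2 ratios with exact two-sided permutation tests, 6 ratios in all, for which 3 samples against 3 cannot give a p below 0.1. The log2 ratio of miR-25-3p over miR-25-5p was 5.14, 5.09 and 5.30 in the controls and 7.57, 7.42 and 5.73 in RUNX1 libraries. All RUNX1 samples lay above the controls, with a difference of 1.73 between the means (5.18 ± 0.107 and 6.90 ± 1.02, SD, n = 3 each; exact permutation test, p = 0.1, adjusted p = 0.12). In other terms, miR-25-5p was 2.69% ± 0.192 of both arms in the controls and 0.985% ± 0.750 in RUNX1 libraries (SD, n = 3 each). In RUNX1 replicate 3 alone this share was 1.85% (95% Wilson interval 1.77% to 1.94%, which covers counting error only), still below the 2.48% of the lowest control.

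miR-106b also had less of its 3p arm relative to its 5p arm. The log2 ratio of miR-106b-3p over miR-106b-5p was -0.62, -0.29 and -0.40 in the controls and -1.32, -1.58 and -0.75 in RUNX1 libraries. The samples did not overlap, and the means differed by -0.78 (exact permutation test, n = 3 each, p = 0.1, adjusted p = 0.12). miR-106b-3p thus was 42.5% ± 2.89 of both arms in the controls and 30.3% ± 6.28 in RUNX1 libraries (SD, n = 3 each).

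For miR-93 the arm ratios of both conditions overlapped. The log2 ratio of the 3p over the 5p arm was -5.75 ± 0.154 in the controls and -5.92 ± 0.215 in RUNX1 libraries (SD, n = 3 each; exact permutation test, p = 0.4 and adjusted p = 0.4). miR-93-3p was 1.83% ± 0.198 of both arms in the controls and 1.64% ± 0.245 in RUNX1 libraries (SD, n = 3 each).

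Arm ratios moved in many other precursors too. In 144 precursors with both arms tested, the 3 RUNX1 ratios lay outside the range of the control ratios in 54.9%, and in 36.1% the less abundant arm was lower relative to the other in all RUNX1 libraries. In the cluster, 2 of 3 precursors, miR-25 and miR-106b, belonged to the latter. The median change of the log2 ratio of the less over the more abundant arm was -0.26 over all 144 precursors, and 95 of them had a negative value. miR-25, with -1.73, was the 10th from the lowest end, miR-106b with -0.78 the 43rd and miR-93 with -0.17 the 81st.

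The more abundant arms of the cluster also shifted against each other, by less than the arms within miR-25. The log2 ratio of miR-93-5p over miR-106b-5p was 2.56, 2.68 and 2.62 in the controls and 2.26, 2.05 and 2.53 in RUNX1 libraries, a difference of -0.34. For miR-25-3p over miR-106b-5p the difference was -0.45, from 4.29 ± 0.0783 to 3.84 ± 0.184 (SD, n = 3 each). miR-25-3p over miR-93-5p differed by -0.11, from 1.67 ± 0.0280 to 1.56 ± 0.0604 (SD, n = 3 each). In all 3 ratios the RUNX1 samples lay below the controls without overlap (exact permutation test, n = 3 each, p = 0.1 and adjusted p = 0.12 for each). The ratio of miR-25-3p over miR-106b-5p follows from those of miR-25-3p over miR-93-5p and miR-93-5p over miR-106b-5p. It is not a separate result.

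In the make-up of the cluster the order of the main arms stayed the same. miR-25-3p was 68.7% ± 0.865 of the cluster's counts in RUNX1 libraries and miR-93-5p 23.3% ± 0.697. miR-106b-5p went from 3.56% ± 0.185 to 4.83% ± 0.665 and miR-25-5p from 1.93% ± 0.130 to 0.682% ± 0.515 (SD, n = 3 each).

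The paralogous clusters carry the same seeds in some of their arms and were listed in full beside the miR-106b/93/25 cluster. All 12 arms of the miR-17/92 cluster were tested, and 1 was altered up and 4 down, beside 33.4% up and 22.6% down among all tested microRNAs. The median log2FC of the 12 arms was -0.40, against 0.11 for all tested microRNAs. miR-19a-3p, which has a seed not found in the miR-106b/93/25 cluster, rose by a log2FC of 0.83 (standard error 0.130). The 4 that fell were the lesser arms miR-17-3p, miR-18a-3p, miR-20a-3p and miR-92a-1-5p. Without RUNX1 replicate 1, 3 of the 12 were altered. With TMM factors from microRNAs alone 1 arm was up and 8 were down, and with library size alone 0 were up and 11 down, so that the rise of miR-19a-3p was not called in the latter. By these scalings 175 and 292 of the 598 tested microRNAs were altered down. miR-92a-3p and miR-19b-3p can also come from the miR-106a-363 cluster. Of the 10 listed arms of the miR-106a-363 cluster only 4 had counts enough for the test, and 3 of them rose. Of all tested microRNAs 33.4% were altered up. Of the arms that rose, miR-363-3p had 1, 6 and 5 counts in the controls and miR-18b-5p had 5, 7 and 23. Both passed the filter only through their RUNX1 counts, so the direction of their change was partly fixed by the filter. With at least 10 counts in every sample 0 arms of the miR-106a-363 cluster were altered. None of its arms reached the level of the cluster's rarest one, and the highest, miR-363-3p, had 31.1 ± 6.73 CPM in RUNX1 libraries (SD, n = 3).

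The arm at the place of miR-25-5p in the miR-17/92 cluster is miR-92a-1-5p. It is shown beside miR-25-5p because it has the largest fall of that cluster.
hsa-miR-25-5p: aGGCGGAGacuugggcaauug
hsa-miR-92a-1-5p: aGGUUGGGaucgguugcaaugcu
miR-92a-1-5p had 768, 763 and 734 CPM in the controls and 124, 136 and 388 CPM in RUNX1 libraries, with a log2FC of -1.81 (standard error 0.392; adjusted p = 0.00339, same edgeR test). As for miR-25-5p, RUNX1 replicate 3 lay between the controls and the other RUNX1 samples. Each of these arms holds 9 G bases, of 21 bases in miR-25-5p and of 23 in miR-92a-1-5p, and their seeds differ. The other arms of the miR-17/92 cluster that fell hold fewer. They have 7 G of 22 bases in miR-17-3p, 5 of 23 in miR-18a-3p and 4 of 22 in miR-20a-3p. Among the arms that were not altered, miR-93-5p holds 8 G of 23 bases, with a log2FC of -0.01. The part of G content in these changes was not tested.

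Of the 6 other microRNAs with the seed of miR-106b-5p and miR-93-5p, 4 were tested and 1 was altered, against 56% of all tested microRNAs. This was miR-20b-5p, which rose from 2.37 ± 0.250 to 6.60 ± 0.928 CPM (SD, n = 3 each). It had only 5, 21 and 16 counts in the controls. With at least 10 counts in every sample 0 of these relatives were altered. The main carriers of this seed were miR-20a-5p, with 18529 ± 2074 CPM in the controls and 15472 ± 2700 CPM in RUNX1 libraries, and miR-17-5p, with 11249 ± 628 and 8717 ± 1446 CPM (SD, n = 3 each). miR-93-5p was below both in every library. The log2 ratio of miR-93-5p over miR-17-5p went from -1.33 ± 0.0458 to -0.96 ± 0.126, and that of miR-106b-5p over miR-17-5p from -3.95 ± 0.0882 to -3.24 ± 0.359, both without overlap (SD, n = 3 each; exact permutation test, p = 0.1, adjusted p = 0.15 over 6 ratios). Against miR-20a-5p the differences were 0.26 for miR-93-5p and 0.60 for miR-106b-5p, again without overlap and with the same p. The ratios of miR-106b-5p over miR-17-5p and over miR-20a-5p follow from those of miR-93-5p and from miR-93-5p over miR-106b-5p. They are not separate results. The ratio of miR-106b-5p over miR-106a-5p overlapped between conditions, with a difference of -0.11 (exact permutation test, n = 3 each, p = 0.5).

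Of the 5 other microRNAs with the seed of miR-25-3p, 4 were tested and 2 were altered, both up, against 33.4% up among all tested microRNAs. These were miR-32-5p, with 60.6 ± 2.33 CPM in the controls and 116 ± 26.9 CPM in RUNX1 libraries, and miR-363-3p, with 1, 6 and 5 counts in the controls and 397, 222 and 160 in RUNX1 libraries. miR-363-3p passed the filter only through its RUNX1 counts, so its direction was partly fixed by the filter. With at least 10 counts in every sample 1 of these seed relatives was altered. The most abundant carrier of this seed was miR-92a-3p, with 26863 ± 918 CPM in the controls and 20834 ± 5383 CPM in RUNX1 libraries (SD, n = 3 each). The log2 ratio of miR-25-3p over miR-92a-3p was -0.878, -0.996 and -0.861 in the controls and -0.473, -0.453 and -0.992 in RUNX1 libraries. RUNX1 replicate 3 fell among the controls here, and the difference of 0.27 had p = 0.3 (exact permutation test, n = 3 each).

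**Figure D3:**
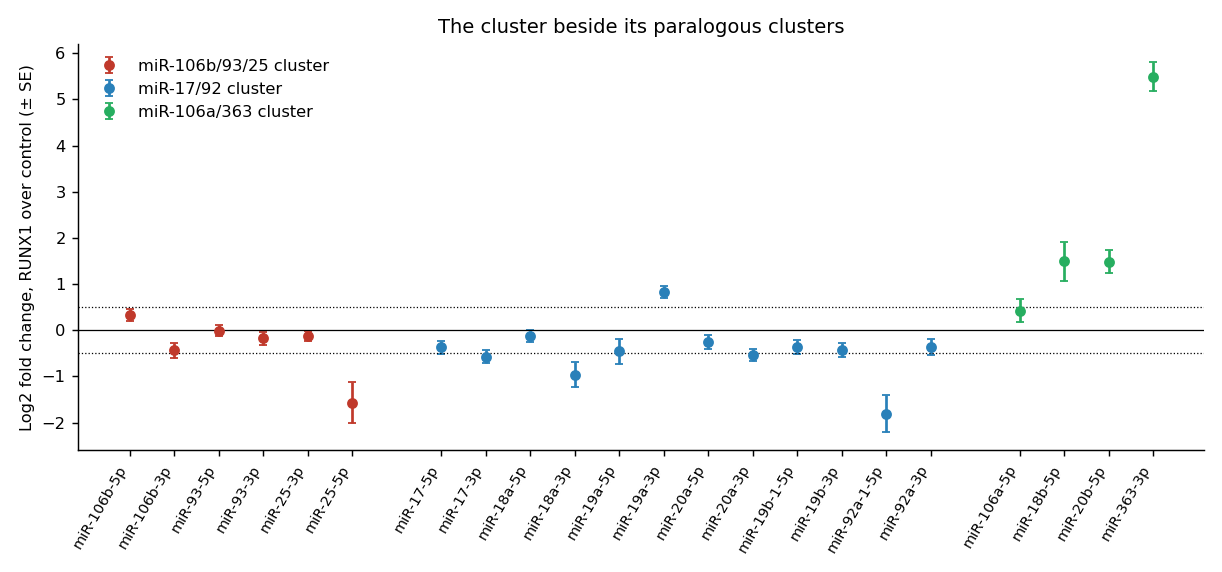
Log2 fold change with standard error for the 6 arms of the miR-106b/93/25 cluster and the tested arms of the miR-17/92 and miR-106a-363 clusters, with dotted lines at the fold threshold of 0.5. miR-25-5p at -1.57 and miR-92a-1-5p at -1.81 are the lowest arms of their clusters, and miR-363-3p is the highest of all.

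Over the 6 samples, the mean pattern of the 3 main arms miR-106b-5p, miR-93-5p and miR-25-3p was nearly flat with TMM. The single arms were not all flat, as every RUNX1 sample lay above the controls for miR-106b-5p and below them for miR-25-3p. Among 582 other tested microRNAs, those nearest to the mean pattern of centred log2 CPM were miR-767-5p, miR-532-5p and miR-320a. Their root mean square differences were 0.0745, 0.0791 and 0.0851 on the log2 scale. The nearest, miR-767-5p, had 354, 353 and 341 CPM in the controls and 382, 366 and 396 CPM in RUNX1 libraries, without overlap. miR-532-5p overlapped, with 493, 475 and 558 CPM in the controls and 498, 501 and 479 CPM in RUNX1 libraries. None of these was altered, which follows from picking them for their nearness to a nearly flat pattern.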

How the data were processed

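Small RNA of K562 cells was sequenced in 3 control and 3 RUNX1 samples. The authors made TruSeq libraries from 1000 ng of total RNA, and analysed the reads on the OASIS platform. The submitters' processing notes name CASAVA 1.8.2 and hg19. The authors deposited whole-number counts per annotated small RNA without normalization. The aligner is not given in the sources used here. Groups and replicate numbers come from the sample titles. With R 4.3.3, small RNAs were kept by edgeR 4.0.16 filterByExpr (minimum count 10, minimum total count 15), scaled by TMM and tested by its quasi-likelihood test with condition as the only term. Standard errors were derived from the log2FC and F. Ratios had 0.5 added to both counts. Rows naming no small RNA held 0 counts. The smallest detectable level, 3 counts, was 0.260 to 1.43 CPM. Alternatives were DESeq2 1.42.0, other scalings, filters and thresholds, the replicate block and each library left out. The members, lists and named microRNAs (the arms, their paralogs and seed relatives, cell type markers, and the 3 nearest patterns) were chosen with earlier results of these data known. Replicates differed by more than sampling noise (chi-square per degree of freedom 9.62 to 451).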

Additional observations from a re-analysis of the deposited data

How the results depend on the processing

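miR-25-5p was altered downwards in every alternative run, with a log2 fold change of -2.21 to -1.501 over the other settings and -2.38 to -1.24 with a library left out. miR-106b-5p was altered in none. The exact tests of the ratios cannot fall below p = 0.1 and say nothing about their stability. The difference for miR-25-3p over miR-25-5p was 1.39 to 2.31 with a library left out. Library size alone altered 5 arms, with log2 fold changes of -1.11 for miR-106b-3p, -0.70 for miR-93-5p, -0.88 for miR-93-3p and -0.82 for miR-25-3p. It also altered 11 arms of the miR-17/92 cluster and 3 of the seed relatives of miR-106b-5p. TMM on microRNAs altered 2 arms, with -0.62 for miR-106b-3p, 9 arms of the miR-17/92 cluster and 2 seed relatives of miR-106b-5p. Both move the zero point of the fold changes. Of the 598 tested microRNAs, library size alone altered 91 up and 292 down, and TMM on microRNAs 161 up and 175 down. Without a filter 3 arms of the miR-17/92 cluster were altered, and the cause was not tested. With at least 10 counts in every sample, fewer microRNAs were tested, and 0 arms of the miR-106a-363 cluster, 0 seed relatives of miR-106b-5p and 1 of miR-25-3p were altered. With a library left out, 1 to 2 arms of the cluster (2 without RUNX1 replicate 3), 3 to 6 of the miR-17/92 cluster and 1 to 2 seed relatives of miR-106b-5p (2 without RUNX1 replicate 1) were altered, and miR-106b-3p ranged from -0.53 to -0.30, with unadjusted P-values above 0.05 in 4 of the 6 fits and without a filter. The share of the 6 arms moved to 3.46% in control and 2.37% in RUNX1 samples without miR-10a-5p, and to 2.62% in control over all counts. Samples with the same replicate number did not deviate together (correlations -0.0327, -0.0904 and 0.0179). With the replicate number as a block, the log2 fold change of miR-25-5p was -1.86 and 1 arm was altered. Among the listed arms, 6 of the miR-106a-363 cluster, 2 seed relatives of miR-106b-5p, 1 of miR-25-3p and 3 markers of other tissues had too few counts for the test.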

Other observations

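The high G content of miR-25-5p, 42.9% of its bases, was looked at after its fall was known. Of 588 tested human microRNAs, 520 had a sequence in the RefSeq table. The 63 with over 40% G had a median log2 fold change of -0.22, and 34.9% of them were altered downwards. With up to 20% G the 168 microRNAs had a median of 0.17 and 21.4% were altered downwards. In the groups between, with over 20 to 30 and over 30 to 40% G, the medians were 0.12 and 0.10. Of these groups 17.3% and 22.4% were altered downwards. By library, the median log2 change of the microRNAs with over 40% G was -0.31, -0.36 and -0.03 in RUNX1 replicates 1, 2 and 3. Replicate 3 was nearest to the controls in this group but in none of the others. There the medians were 0.20, 0.17 and 0.23 with up to 20% G and 0.08, 0.23 and 0.19 with over 20 to 30% G. With over 30 to 40% G they were 0.02, 0.01 and 0.10. Across the 520 microRNAs, which share the libraries and are not independent, Spearman's rho between G content and log2 fold change was -0.13. By GC content, 57.1% for miR-25-5p, there was no such step at its group. The 108 microRNAs with over 50 to 60% GC had a median log2FC of 0.11, as had all tested microRNAs. With up to 40, over 40 to 50 and over 60% GC the medians were 0.27, 0.08 and 0.001. Spearman's rho between GC content and log2FC was -0.15 (n = 520). The part of base composition in the fall of miR-25-5p was not tested.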
